A study of Mus musculus with 6 samples.

Results

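RNA levels of 10 ER stress and Wolfram syndrome genes were examined in the retina of control and efavirenz (EFV)-treated 5XFAD mice. The genes were Wfs1, Hspa5, Hsp90b1, Ddit3, Atf4, Atf6, Xbp1, Dnajc3, Herpud1 and Calr. They were chosen by symbol for their known role, with earlier results of these data known. All 10 were found among the 19401 genes listed in the 6 libraries. 5XFAD mice carry mutant human amyloid precursor protein and mutant human presenilin 1 and serve as a model of Alzheimer's disease. All mice of both groups were 9 months old, male, hemizygous for the transgenes on the B6SJL background, and lacked the retinal degeneration alleles rd8 of Crb1 and rd1 of Pde6b by the study's methods. EFV, an antiretroviral drug that activates the cholesterol hydroxylase CYP46A1, was given in drinking water with Tween 80 from 3 to 9 months of age. Control mice drank water with Tween 80 alone. The sample labels give the dose as 0.08 mg/kg of body weight, and the methods give a slightly higher one per day. There were 3 libraries per group, each from a pool of 1 retina per mouse of 5 to 6 mice. The labels call the tissue retina, whereas the methods describe retina plus retinal pigment epithelium (RPE). The spread between libraries is therefore a spread between pools.

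The ER folds secreted and membrane proteins. When unfolded proteins build up there, 3 membrane sensors, PERK, IRE1 and ATF6, start the unfolded protein response, which slows translation and raises the RNA of chaperones and of the machinery that removes misfolded proteins. WFS1 (wolframin) is an ER membrane protein that takes part in ER calcium balance and restrains ER stress signaling. Loss of WFS1 causes Wolfram syndrome, in which diabetes is joined by optic atrophy from the loss of retinal ganglion cells. Photoreceptors make large amounts of opsin in the ER, and loss of ATF6 in people causes a cone disorder.

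The promoters of the chaperone genes Hspa5, Hsp90b1, Calr and Dnajc3 and of Herpud1 held letters of the elements that ATF6 and XBP1 are known to bind, and they are shown because 5 members hold one. RefSeq windows (GRCm38.p6) of 250 bases before to 50 bases after the gene start were found for 9 members, all but Atf6. The ER stress response element was searched on both strands as CCAAT, then 9 bases of any kind, then CCACG. The second form of the element was searched as ATTGG, then 1 base of any kind, then CCACG. Each sequence is given 5′ to 3′ on the strand that reads in this order, with the element in capitals and 10 flanking bases on each side in lower case.
Hspa5, chr2:34772015-34772053, same strand as the gene: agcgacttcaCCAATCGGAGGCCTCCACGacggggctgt
Hsp90b1, chr10:86705628-86705666, same strand as the gene: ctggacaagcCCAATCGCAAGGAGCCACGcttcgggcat
Hsp90b1, chr10:86705523-86705561, strand opposite to the gene: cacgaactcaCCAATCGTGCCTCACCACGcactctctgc
Calr, chr8:84847065-84847103, strand opposite to the gene: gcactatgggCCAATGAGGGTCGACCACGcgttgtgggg
Dnajc3, chr14:118937817-118937855, same strand as the gene: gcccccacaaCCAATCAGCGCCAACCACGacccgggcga
Herpud1, chr8:94386367-94386397, same strand as the gene, second form of the element: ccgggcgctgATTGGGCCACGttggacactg
The edge of the element nearer to the gene start lay 46 bases before it in Hspa5, 86 in Dnajc3, 143 in Calr and 41 in Herpud1. For the 2 elements of Hsp90b1 this edge lay 193 and 88 bases before the gene start. A gene can have several windows, so genes and windows are both counted. The first form was found in 4 of the 9 members with a window. It was found in 37 of 27025 genes, or 39 of 32851 windows (0.119%). The second form was found in Herpud1 and in 12 of 27025 genes, or 12 windows (0.0365%). The CCAAT letters alone are part of both forms, in the second as ATTGG on the other strand. The 5 members with an element therefore hold these letters by construction. On either strand CCAAT was found in 8 of the 9 members and in 11096 of 27025 genes, or 37.4% of windows. The core of the unfolded protein response element, TGACGTGG, was found in none of the 9. It was found in 193 of 27025 genes, or 0.676% of windows. These matches describe letters and are not measured binding sites.

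In FPKM, which divides counts by transcript length and library total, the control levels of the 10 genes ran from 7.05 for Dnajc3 to 193 for Calr, a 27.4-fold range. The order was Calr, Hsp90b1, Atf4, Hspa5, Ddit3, Herpud1, Xbp1, Wfs1, Atf6 and Dnajc3. Calr lay above 98.9% of listed genes and Dnajc3 above 58.4%. The control ranges of neighbors in this order did not overlap, except those of Hsp90b1 and Atf4 and those of Ddit3 and Herpud1. Expected counts behind these levels were 708 to 11093 per gene and library, and each was a whole number to 2 decimals. All 10 genes passed the filter on low counts (at least 10 counts in at least 3 libraries).

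**Figure D1:**
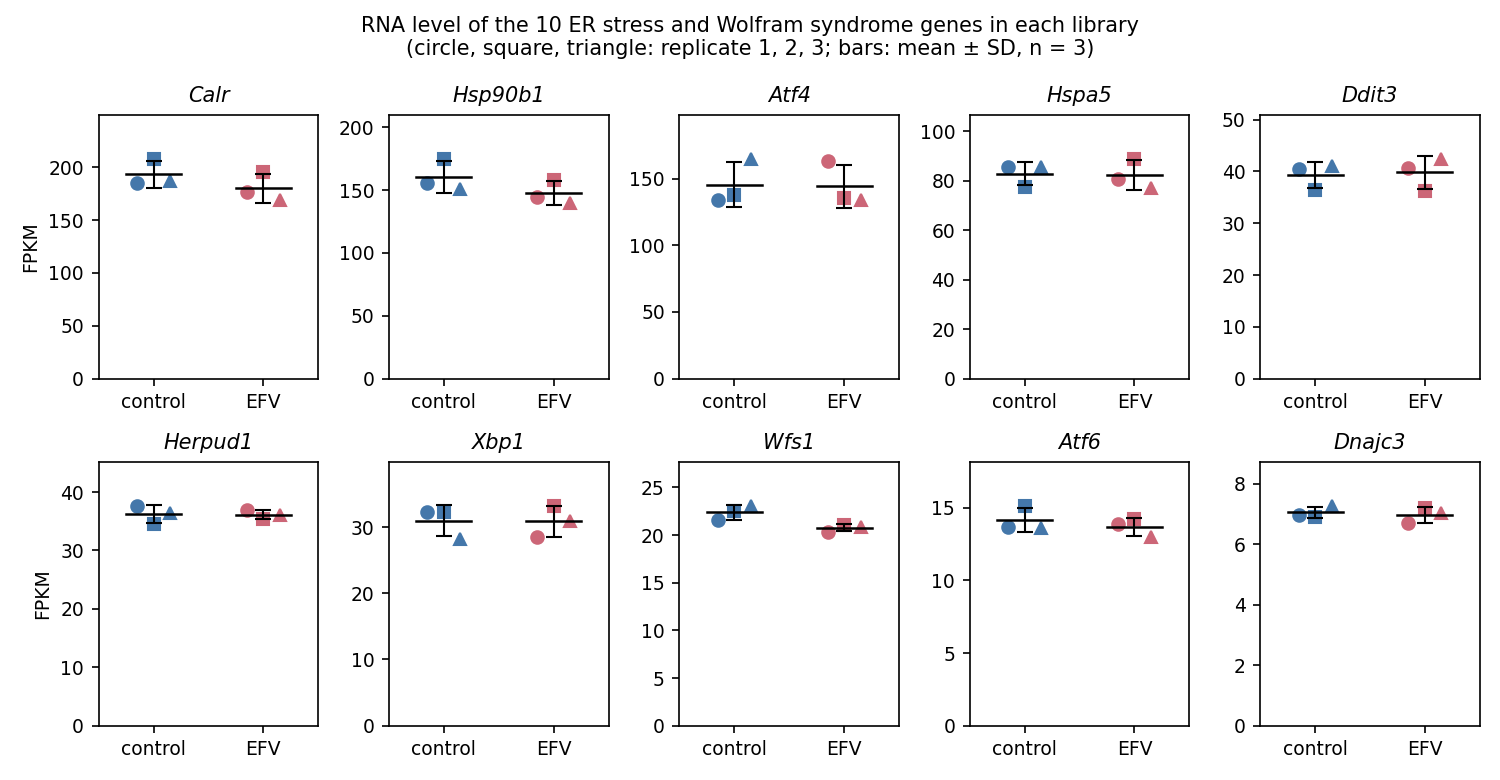
FPKM of each gene in the 3 control (blue) and 3 EFV (red) libraries, with each axis starting at 0; circles, squares and triangles are replicates 1, 2 and 3, and black bars are the mean ± SD (n = 3). Wfs1 is the one gene whose EFV libraries (20.36 to 21.05) all lie below its control libraries (21.54 to 23.06).

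None of the 10 genes differed between EFV-treated and control retinas at an adjusted p of 0.05 (edgeR quasi-likelihood test, Benjamini-Hochberg over 15537 genes tested, adjusted p = 0.999 for each). This was also true of all genes tested (0%), although 472 had an unadjusted p of 0.05 or less. DESeq2 called 11 of all genes and 0 of the 10 at an adjusted p of 0.05, limma on log2 FPKM called 0 of either, and a Poisson model, whose error is counting error alone, called 3 of the 10 beside 2043 of all genes. The study used looser limits, an unadjusted p of 0.05 and a fold change of 7% or more, with a Poisson model. The Poisson model run here is a separate fit and not a repeat of the study's own. With the p of edgeR, 1 of the 10 genes, Wfs1, was past these limits, beside 467 of all genes (3.01%, with 1.54% lower and 1.47% higher in EFV), of which 51.2% were lower. That share was 35.6% when libraries were scaled by total counts alone and 39.3% with limma on log2(FPKM + 0.1). The fitted level of 9 of the 10 genes was lower in EFV and that of 1 was higher, with a median log2 fold change of -0.03. Of all genes tested 49.5% were lower, and their median was 0.00. The 10 genes were chosen with earlier results of these data known, and the study had listed Wfs1 and Hsp90b1 as lower. The count of lower genes is therefore not independent evidence. It was 7 with RPE markers as a covariate and 7 without control 1.

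**Figure D2:**
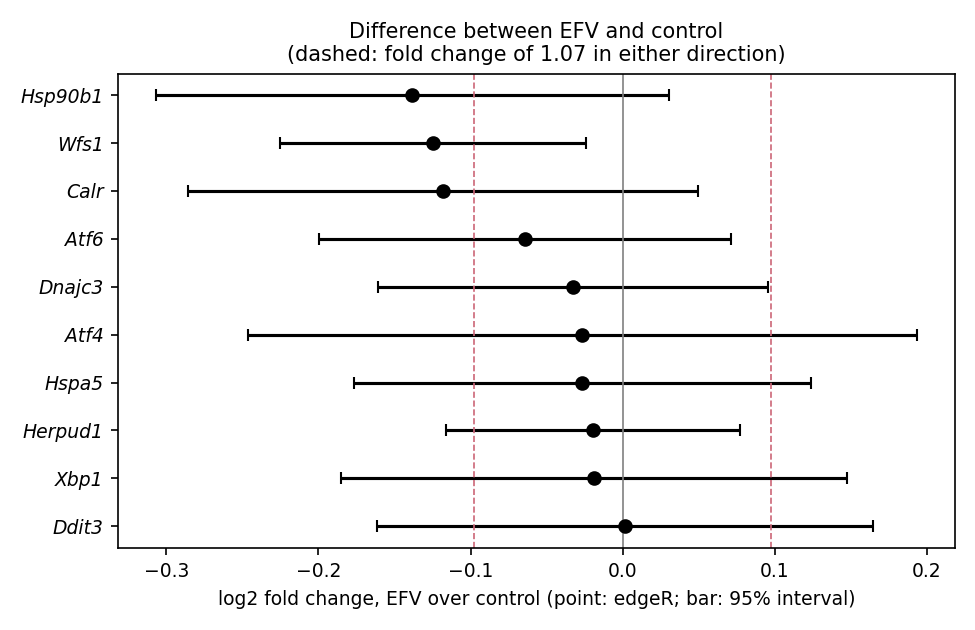
Log2 fold change of each gene, EFV over control, from edgeR; points are estimates, bars are 95% intervals, and dashed lines mark the study's limit on the fold change, in either direction. The interval of Wfs1 (-0.23 to -0.02) lies below 0 and the other 9 span it.

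Wfs1 encodes wolframin and lies on chromosome 5 (36966104 to 36988982, GRCm38). Its FPKM was 21.54, 22.53 and 23.06 in control libraries 1, 2 and 3 and 20.36, 21.05 and 20.87 in EFV libraries 1, 2 and 3. All EFV libraries were below all control libraries, which was true of 8.14% of all genes tested in one direction or the other. The mean was 22.4 ± 0.772 in control and 20.8 ± 0.358 in EFV (SD, n = 3), and the log2 fold change was -0.12 (SE 0.0445, adjusted p = 0.999, edgeR). By p, Wfs1 ranked 155 of 15537. Its unadjusted p was 0.0207 in edgeR, and a two-sided exact permutation test over the 6 libraries gave p = 0.1, the smallest that 3 libraries against 3 can give. The study picked Wfs1 and Hsp90b1 on these same libraries, so the direction of either here is not independent evidence. It was not past the limits without control 2, without control 3 or without EFV 1, where the log2 fold changes were -0.11, -0.10 and -0.11.

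The other Wolfram syndrome gene, Cisd2, encodes an ER and mitochondrial outer membrane protein with an iron-sulfur cluster. Its FPKM was 24.09, 23.51 and 23.21 in control libraries and 25.13, 25 and 25.04 in EFV libraries. The groups did not overlap, with EFV higher, as was true of 8.14% of all genes tested in one direction or the other. The difference did not pass the limits (log2 fold change 0.07, SE 0.0387, adjusted p = 0.999, edgeR). The list that Cisd2 stands in covers ER calcium handling broadly, not channels and pumps alone. It had 7 genes lower and 7 higher of 14 tested, and 0 past the limits, beside 3.01% of all genes. Its most abundant genes were Atp1b1, a sodium pump subunit that binds wolframin (173 FPKM in control, 177 in EFV), and Atp2a2, the SERCA2 calcium pump of the ER (64.7 and 63.4).

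Atf6 encodes an ER membrane sensor that is cut in the Golgi and then works as a transcription factor. Its FPKM was 13.7, 15.13 and 13.64 in control libraries and 13.87, 14.2 and 13.02 in EFV libraries. The groups overlapped, with control 2 the highest and EFV 3 the lowest library, and the log2 fold change was -0.06 (95% interval -0.20 to 0.07, adjusted p = 0.999, edgeR). The Atf6 row of the files also pools a transcript that the authors' pipeline named as unannotated. The paralog Atf6b had 27.3 FPKM in control and 28.0 in EFV (log2 fold change 0.02). The proteases that cut ATF6, encoded by Mbtps1 (28.0 and 29.1 FPKM) and Mbtps2 (4.3 and 4.6), had log2 fold changes of 0.04 and 0.08. Of the 14 genes of the ATF6 arm and related membrane factors, 7 were lower and 7 higher. Past the limits were 0 of them, beside 3.01% of all genes.

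Atf4 encodes the transcription factor whose translation rises when PERK slows protein synthesis. Its FPKM was 134.32, 137.57 and 165.1 in control libraries and 163.29, 135.92 and 133.86 in EFV libraries. One library of each group, control 3 and EFV 1, stood above the rest, and the group means differed by less than the SD (log2 fold change -0.03, 95% interval -0.25 to 0.19, adjusted p = 0.999, edgeR). The same libraries had the highest summed FPKM of 7 immediate-early genes, 167 in control 3 and 77.7 in EFV 1, against 47.8 to 62.0 in the other four. Control 3 also had 834 FPKM of 7 lens genes, against 8.95 to 34.7 elsewhere, and without control 3 the log2 fold change of Atf4 was 0.07. The part of the immediate-early genes in the Atf4 level was not tested.

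Ddit3 encodes CHOP, a factor that ATF4 induces and that promotes cell death under lasting stress. Its FPKM was 40.48, 36.45 and 40.97 in control libraries and 40.73, 36.26 and 42.46 in EFV libraries. The groups covered nearly the same range, with the second replicate the lowest of each (log2 fold change 0.00, 95% interval -0.16 to 0.16, adjusted p = 0.999, edgeR). The pattern of Atf4 across libraries was not that of Ddit3: EFV 3 was the highest library of Ddit3 and the lowest of Atf4. Eif2ak3, which encodes the sensor PERK, had 10.3 FPKM in both groups (log2 fold change -0.01). Of the 22 genes of the PERK and ATF4 arm, 13 were lower, 9 higher and 0 past the limits, beside 3.01% of all genes. Its most abundant genes were Slc3a2, an amino acid transporter subunit (52.4 FPKM in control, 53.3 in EFV), and Ddit4, an inhibitor of mTOR signaling (50.4 and 48.8).

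Xbp1 encodes the factor that IRE1 switches on by removing a stretch of its RNA outside the nucleus. The stretch is shown because it decides which protein the RNA yields. As marked in capitals, 26 bases long, it lies at chr11:5524282-5524307 (GRCm38), in exon 4 and inside the coding sequence. The letters cag stand before the capitals and also end them. Removal of a stretch shifted upstream by these letters leaves the same RNA. The capitals and coordinates therefore show 1 of the possible placements, which need not be the one that IRE1 cuts.
Xbp1: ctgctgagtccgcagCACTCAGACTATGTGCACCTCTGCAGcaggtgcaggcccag
Without the 26 bases the reading frame shifts, and the open reading frame grows from 267 to 371 codons in the reference transcript. Xbp1 had 32.22, 32.34 and 28.25 FPKM in control libraries and 28.53, 33.2 and 30.97 in EFV libraries. The groups overlapped, with control 3 the lowest library and EFV 2 the highest (log2 fold change -0.02, 95% interval -0.18 to 0.15, adjusted p = 0.999, edgeR).

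The deposited gene length of Xbp1 is an average over its 2 listed transcripts, weighted by their estimated abundance. It was 2263.65, 2263.51 and 2263.53 bases in control libraries 1, 2 and 3 and 2263.47, 2262.13 and 2264 bases in EFV libraries 1, 2 and 3. EFV 2 had the shortest length and EFV 3 the longest, so the EFV libraries lay on both sides of the controls. If the second transcript is the first without the 26 bases, which was not checked, a length difference gives a difference in the share of Xbp1 RNA that RSEM assigned to the shorter form. Against EFV 3, which is 0 by construction, the share was higher by 1.35, 1.88 and 1.81 percentage points in control libraries and by 2.04 and 7.19 in EFV 1 and EFV 2. The group means of this difference were 1.68 ± 0.291 in control and 3.08 ± 3.71 in EFV (SD, n = 3, two-sided exact permutation p = 0.7), and the test does not depend on which library is set to 0.

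Ern1, which encodes IRE1, had 8.17 FPKM in control and 7.95 in EFV (log2 fold change -0.04). Of 14 tested genes of the IRE1 and XBP1 arm, 9 were lower, 5 were higher, and 1 was past the limits, beside 3.01% of all genes. This gene was Dnajb11, an ER co-chaperone of BiP, with 26.39, 26.77 and 28.02 FPKM in control libraries and 25, 25.37 and 25.56 in EFV libraries. The groups did not overlap, as was true of 8.14% of all genes tested in one direction or the other. The log2 fold change was -0.11 (SE 0.0466, adjusted p = 0.999, edgeR). Without control 2 or without EFV 1 the count of genes past the limits was 0. Sec61b, a subunit of the ER translocation channel, was the most abundant of the list (29.2 FPKM in control, 29.1 in EFV).

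Hspa5 encodes BiP (GRP78), the main ER chaperone, which binds the sensors and keeps them inactive while unfolded proteins are few. Its FPKM was 85.75, 77.45 and 85.41 in control libraries and 80.63, 88.91 and 77.25 in EFV libraries. The highest and the lowest library were both EFV libraries, and the log2 fold change was -0.03 (95% interval -0.18 to 0.12, adjusted p = 0.999, edgeR). BiP RNA is a common readout of the response, and its levels in the groups could not be told apart within this interval.

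Hsp90b1 encodes GRP94, the HSP90 of the ER, and Calr encodes calreticulin, a calcium-binding chaperone of glycoproteins. Hsp90b1 had 155.37, 174.86 and 150.73 FPKM in control libraries and 144.61, 157.87 and 139.63 in EFV libraries. Calr had 185.02, 208.1 and 186.76 FPKM in control libraries and 176.26, 195.38 and 168.94 in EFV libraries. In both genes control 2 was the highest library, EFV 3 the lowest, and the groups overlapped. The log2 fold change of Hsp90b1 was -0.14 (SE 0.0744, 95% interval -0.31 to 0.03, adjusted p = 0.999, edgeR). For Calr it was -0.12 (SE 0.0742, 95% interval -0.29 to 0.05, adjusted p = 0.999, edgeR). Neither passed the limits with the p of edgeR. DESeq2 and the Poisson model put Hsp90b1 past them, and the Poisson model Calr as well. The study had listed Hsp90b1, but not Calr, among its changed genes, from these same libraries. The Poisson model run here thus did not repeat the study's own calls. The estimates were close to that of Wfs1, with SEs 0.0744 and 0.0742 against 0.0445. Without control 2 the values were -0.06 for Hsp90b1 and -0.06 for Calr, and without EFV 2 they were -0.20 and -0.19, both past the limits. Hsp90b1 was also past them without control 3 (-0.18).

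**Figure D3:**
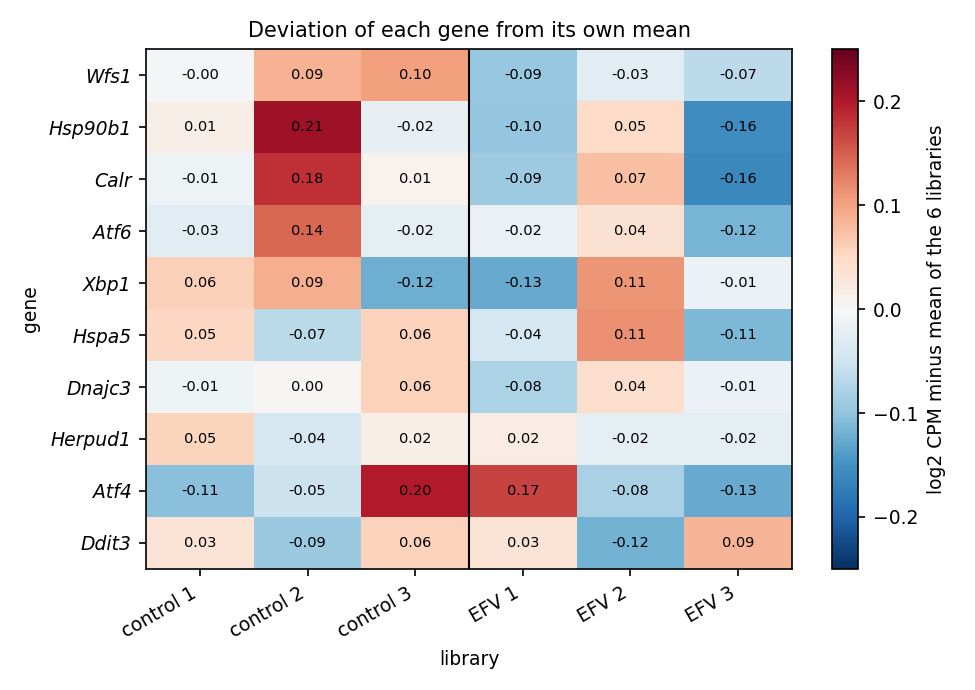
Log2 CPM of each gene minus its own mean over the 6 libraries, for control (left of the line) and EFV libraries; red is above the mean and blue below. Hsp90b1, Calr and Atf6 share their highest library (control 2) and lowest library (EFV 3), and Atf4 is highest in control 3 and EFV 1.

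Hsp90b1, Calr and Atf6 were the members most alike across libraries. The Euclidean distance between their centered, unit-length log2 CPM profiles over the 6 libraries was 0.198 for Hsp90b1 and Calr, 0.323 for Hsp90b1 and Atf6, and 0.325 for Calr and Atf6, and the next smallest was 0.768 for Wfs1 and Calr. At the ends of their order of libraries, control 2 and EFV 3, the 3 genes ran against 9 RPE marker genes. The summed FPKM of these markers was 29.5 in control 2, the lowest, and 65.5 in EFV 3, the highest. Over the other libraries the markers and Hsp90b1 ran in the same order. The markers had 63.74 FPKM in EFV 2, 58.45 in control 1, 54.37 in control 3 and 51.16 in EFV 1. Hsp90b1 had 429, 419, 409 and 388 CPM in these libraries. Calr had 370, 348, 354 and 330 CPM, and Atf6 had 106.0, 101.4, 101.6 and 102.0 CPM. Both were also highest in EFV 2 among these libraries, but neither kept the order of the markers over the rest. None of the 9 markers was listed at 0 in a library. Of the 9, 8 were higher in EFV, whereas 49.5% of all genes tested were lower. Past the limits were 2 of these 8, beside 3.01% of all genes. With the RPE markers as a covariate the log2 fold changes were -0.04 for Hsp90b1, -0.02 for Calr and 0.03 for Atf6, whereas that of Wfs1 was -0.11 and no longer past the limits. In bulk tissue fewer cells of a type and less RNA per cell cannot be told apart, and the part of the RPE share in these differences was otherwise not tested.

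**Figure D4:**
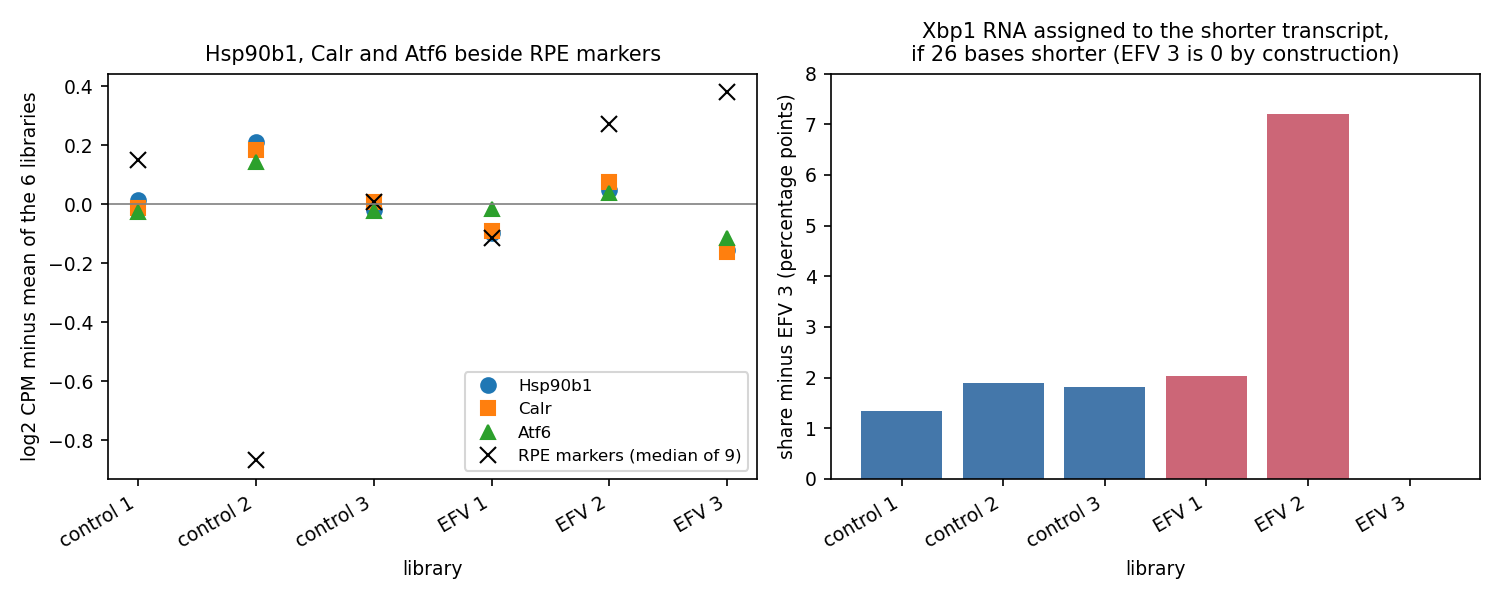
Left, log2 CPM minus the mean of the 6 libraries for Hsp90b1, Calr and Atf6 (symbols) and the median of 9 RPE markers (crosses) in each library. Right, bars from 0 give the share of Xbp1 RNA assigned to the shorter transcript minus that of EFV 3, in percentage points, with EFV 2 highest at 7.19 and EFV 3 at 0 by construction (control blue, EFV red).

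Dnajc3 encodes P58IPK, a BiP co-chaperone and inhibitor of PERK. Its FPKM was 6.98, 6.91 and 7.27 in control libraries and 6.69, 7.19 and 7.04 in EFV libraries. The groups overlapped, and the log2 fold change was -0.03 (95% interval -0.16 to 0.10, adjusted p = 0.999, edgeR). Of the 18 other ER chaperones and folding enzymes, 10 were lower, 8 higher and 0 past the limits, beside 3.01% of all genes. Among them Canx, the membrane-bound relative of calreticulin, had 73.5 FPKM in control and 73.2 in EFV, and P4hb, a disulfide isomerase, had 68.5 and 70.7. Pdia3, the disulfide isomerase that works with calreticulin, had 61.7 and 60.1 FPKM, and Pdia4 had 20.2 and 20.8.

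Herpud1 encodes an ER membrane protein that helps assemble the complex for ER-associated degradation. Its FPKM was 37.63, 34.54 and 36.38 in control libraries and 36.89, 35.41 and 36.05 in EFV libraries. All EFV libraries lay within the control range, and the interval of the difference was among the narrowest of the 10 genes (log2 fold change -0.02, 95% interval -0.12 to 0.08, adjusted p = 0.999, edgeR). Of 21 other genes of ER-associated degradation, 15 were lower, beside 49.5% of all genes tested, and 6 were higher. Past the limits were 0 of them, beside 3.01% of all genes. The most abundant was Vcp, the ATPase that pulls proteins out of the membrane (93.4 FPKM in control, 93.7 in EFV). The ligase Syvn1 (HRD1) and its partner Sel1l had log2 fold changes of 0.00 and -0.04.

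**Figure D5:**
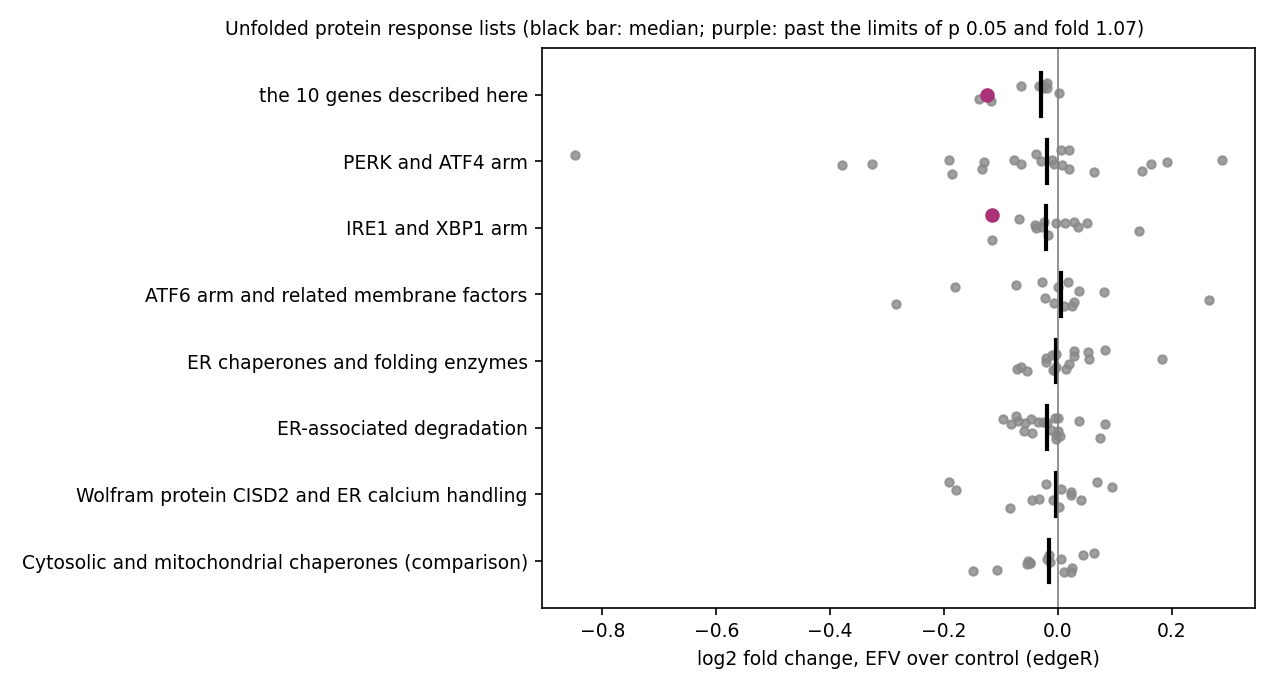
Log2 fold change, EFV over control, of each gene (point) in the 10 genes described and in 7 further lists; black bars are medians and purple points are past the study's limits on p and fold change. The medians of all lists lie between -0.03 and 0.01, and Wfs1 and Dnajb11 are the purple points.

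Over the 6 lists of the response together, 61 of 103 tested genes were lower in EFV (59.2%), 42 were higher, and 1 was past the limits (0.971%, beside 3.01% of all genes). Their median log2 fold change was -0.01. In a comparison list of 15 cytosolic and mitochondrial chaperones, 9 were lower, 6 were higher and 0 were past the limits. Its most abundant genes, Hsp90aa1 and Hspa8, had 600 and 535 FPKM in control and 612 and 550 in EFV. The gene annotation in the files gave a second view: of 63 tested genes annotated to the response to ER stress, 34 were lower and 29 higher. Of the 63 genes, 3 were past the limits, beside 3.01% of all genes. These were Wfs1, Ufc1, which encodes an enzyme of protein ufmylation (log2 fold change -0.17, adjusted p = 0.999, edgeR), and Pla2g6, a phospholipase (log2 fold change 0.14, adjusted p = 0.999, edgeR). Ufc1 and Pla2g6 were named after their values were seen.

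Genes with a promoter element were also followed beyond the members. Of the 49 genes with either form, 30 were tested, and the 25 that are not among the 10 had 10 lower, 15 higher and a median log2 fold change of 0.03. Dnajb11 alone of these was past the limits, beside 3.01% of all genes. The 5 members with an element had log2 fold changes of -0.14 to -0.02, none past the limits. The other 5, among which Atf6 had no window to search, ran from -0.12 to 0.00 with Wfs1 past the limits.

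The genes whose pattern over the 6 libraries was nearest to that of Wfs1, among 11692 with a mean of at least 100 counts, were Stk36 (distance 0.151), Sars (0.180) and Dnajb11 (0.207). Stk36 had 4.13 FPKM in control and 3.86 in EFV, and Sars, a transfer RNA synthetase, had 43.6 and 42.3. The nearest to Hspa5 were Triap1 (0.205), Gpc3 (0.215) and Rab11a (0.219). No member was among the 3 nearest of either gene.

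By annotation, the 10 genes shared terms that the choice by role implies: 4 (Wfs1, Ddit3, Atf6 and Dnajc3) were annotated to the ER unfolded protein response, a term held by 0.278% of annotated genes. Wfs1 and Atf6 were also annotated to visual perception (0.820%). Each library summed to 23455167 to 24590278 expected counts, and TMM scaling factors were 0.984 to 1.01. Rod marker genes summed to 23568 to 25312 FPKM, so the defining transcripts of the labelled tissue were present in every library. Genes that overlap a member can share reads with it. On the same strand these were Gm15344 (977 bases) and the miRNA gene Gm25745 in Hsp90b1 and 2 small nuclear RNA genes (107 bases each) in Atf6. On the opposite strand they were 1810014B01Rik in Hsp90b1 (4598 bases), Mars in Ddit3 (68 bases), Gm4189 in Ddit3 (15 bases) and Gm15890 in Herpud1 (535 bases), and the strandedness of the counting is not given in the sources used here.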

How the data were processed

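RNA of 6 pools of mouse retina plus RPE was sequenced, 3 control and 3 EFV. The authors filtered the reads, aligned them to the mouse genome (mm10; the submitters' processing notes name HISAT2 2.0.4 and Bowtie2 2.2.5) and deposited, from RSEM 1.2.12, an expected count, an FPKM and an average length per gene. The expected counts are not normalized, and the authors' FPKM are divided by gene length and library total. Labels describe poly-A selection, the methods random primers.

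Here expected counts were rounded, 15537 genes with 10 or more counts in 3 or more libraries were kept, and EFV was compared with control in edgeR 4.0.16 under R 4.3.3 (quasi-likelihood test, TMM scaling, two-sided, Benjamini-Hochberg over all genes). FPKM were used as deposited for levels. Libraries held 23455167 to 24590278 counts, and the biological coefficient of variation over all genes was 0.0983. Alternatives were DESeq2 1.42.0, limma 3.58.1 on log2 FPKM with a pseudocount of 0.1 or 1, a Poisson model, other scalings and filters, covariates, a replicate block and leaving out each library. Sequences came from RefSeq windows and the GENCODE mouse annotation of GRCm38; Python 3.11.15 was used.

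The members and lists were chosen with earlier results of these data known. Named were all 10 members, Cisd2 and 10 genes of steps the members work in, and per list at most the 2 most abundant genes and 4 with the smallest p of at most 0.05. For likeness, the 3 nearest genes to Wfs1 and Hspa5 were taken. Markers of 12 cell types or states were summed per library. In the lists of rods, cones, bipolar, amacrine and horizontal, ganglion and Müller cells, microglia, endothelium and blood cells, 0 genes were past the limits. Past them were 2 of 9 RPE markers, higher in EFV, and 1 of 7 immediate-early genes, lower. All 7 tested lens markers, which were high in control 3, were lower in EFV and past the limits. The share over all genes was 3.01%.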

Additional observations from a re-analysis of the deposited data

How the results depend on the processing

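Wfs1 was lower in EFV under all 19 alternatives (log2 fold change -0.16 to -0.10) and past the limits in 14 of them. It was not past them without control 2, control 3 or EFV 1, or with RPE or lens markers as a covariate. Hsp90b1 was past them in 6 and Calr in 3. The number of the 10 genes past the limits was 1, but 2 with DESeq2, 3 with the Poisson model, 3 with the replicate block, 0 with the RPE covariate, and 0 to 3 when each library was left out. With the Poisson model, whose error is counting error alone, 3 were called at an adjusted p of 0.05. For the genes of the lists the count was 1, but 0 with total counts, 0 with DESeq2, 12 with the Poisson model, 2 with limma on either pseudocount, 3 with the block, 0 with the RPE covariate, 3 with the lens covariate, and 0 to 4 with a library left out. All genes past the limits numbered 269 with DESeq2 and 2305 with the Poisson model, and all genes called at an adjusted p of 0.05 numbered 11 and 2043. The median log2 fold change of the 10 genes was -0.059 with the lens covariate and ran from -0.089 to -0.029 with a library left out. The sign turned with the RPE covariate for Ddit3 (-0.062), Atf4 (0.0016), Atf6 (0.025) and Xbp1 (0.0024), and with the lens covariate for Atf4 (0.077). With a library left out, log2 fold changes spanned 0 in Ddit3 (-0.045 to 0.057), Atf4 (-0.12 to 0.072), Xbp1 (-0.082 to 0.037), Herpud1 (-0.046 to 0.0036) and Hspa5 (-0.095 to 0.022). None of these reached a p of 0.05, and the cause was not tested.

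Replicate numbers are shared by the groups. Same-numbered libraries correlated by 0.125, 0.0832 and 0.0992 in their deviations, so the numbers were not taken as a pairing. With the replicate block 3 of the 10 genes, Hsp90b1, Calr and Wfs1, and 514 of all genes were past the limits, 0 at an adjusted p of 0.05. At the spread between these pools the SE of the log2 fold change was 0.0428 to 0.0972, which limits the differences that could be seen.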
